A study of Mus musculus with 30 samples.

Results

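KIT-selected cells of postnatal day 14 (P14) mouse testis were compared with ID4-GFP-sorted cells of postnatal day 7 (P7), gene by gene, over the 20889 gene symbols of the deposited table. Each side is 1 library, so 2 of the 30 samples of the series and 2 of the 11 RNA columns carry the comparison, and no spread between replicates, no p-value and no error could be given. The P14 KIT cells came from C57BL/6 testis and were taken with magnetic beads carrying an antibody to CD117, which is the KIT receptor. The P7 ID4-GFP cells, also labelled C57BL/6, were sorted by flow cytometry from mice with a GFP reporter for Id4 that came from J. Oatley; over 95% of the sorted cells were live by propidium iodide. Both groups are labelled spermatogonia, neither is labelled with any other genotype or treatment, and whether animals were pooled is not given. Beside them stand P7 KIT and P12 KIT cells, taken with the same beads (2 libraries each), P0 THY1 cells (2 libraries) and P14 THY1 cells (1 library), taken with beads for CD90.2, and P7 OCT4-GFP cells (1 library), sorted from mice with an Oct4 reporter; all are labelled C57BL/6. Age, the method of sorting and the marker differ together between the columns and cannot be told apart.

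Spermatogonia are the mitotic germ cells of the testis. A small fraction, the stem cells, divides in response to the niche factor GDNF and expresses the transcriptional inhibitor ID4; most become KIT-positive differentiating cells under retinoic acid, which also induces Stra8 and the entry into meiosis. In meiotic prophase cohesins and axis proteins organise each chromosome, DNA breaks are made and repaired against the homologous chromosome, and the telomeres attach to the nuclear envelope. In the mouse the first spermatogenic wave passes through these steps in near synchrony in the weeks after birth.

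The germ cell helicase gene Ddx4 stood at 169 FPKM in P14 KIT and 225 FPKM in P7 ID4-GFP cells, so both columns hold germ cell RNA. FPKM are fragment counts scaled by transcript length and library size. The 2 sort markers went with the labels: Kit stood at 103 FPKM in P14 KIT and 38.8 FPKM in P7 ID4-GFP cells, and Id4 at 2.85 and 27.7 FPKM in the same order of groups. The 75th percentile over all genes was 17.3 FPKM in P14 KIT and 17.5 FPKM in P7 ID4-GFP cells. Among 510 genes under 0.05 FPKM in both columns the commonest ratio of P14 KIT to P7 ID4-GFP was 1.66, found in 118 genes, which means fewer fragments behind a value in P14 KIT. The P7 ID4-GFP column listed Rmrp at 0, although every other column had at least 5 FPKM of it (239973 FPKM in P14 KIT), so a 0 there can be a failed estimate. Markers of other testis cells summed to 1412 FPKM in P14 KIT and 253 FPKM in P7 ID4-GFP cells, the lowest sum of the 11 columns, and their values stand beside the results they touch.

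Differences are of log2(FPKM + 1), P14 KIT minus P7 ID4-GFP, on which 1 is a 2-fold and 2 a 4-fold difference; the scale understates the difference of genes at low level. A gene was counted at 4-fold or more with at least 5 FPKM in the higher column. Among the 12027 genes with a mean of at least 1 FPKM over both columns, 398 (3.31%) were counted higher and 230 (1.91%) lower in P14 KIT cells. At least 2-fold higher were 1563 genes (13.0%) and at least 2-fold lower 1346 (11.2%), and the median difference of all 12027 genes was -0.04. These shares are the background for every list below. A lower value in such bulk RNA can come from fewer cells of a type or from less RNA per cell, which cannot be told apart.

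**Figure D1:**
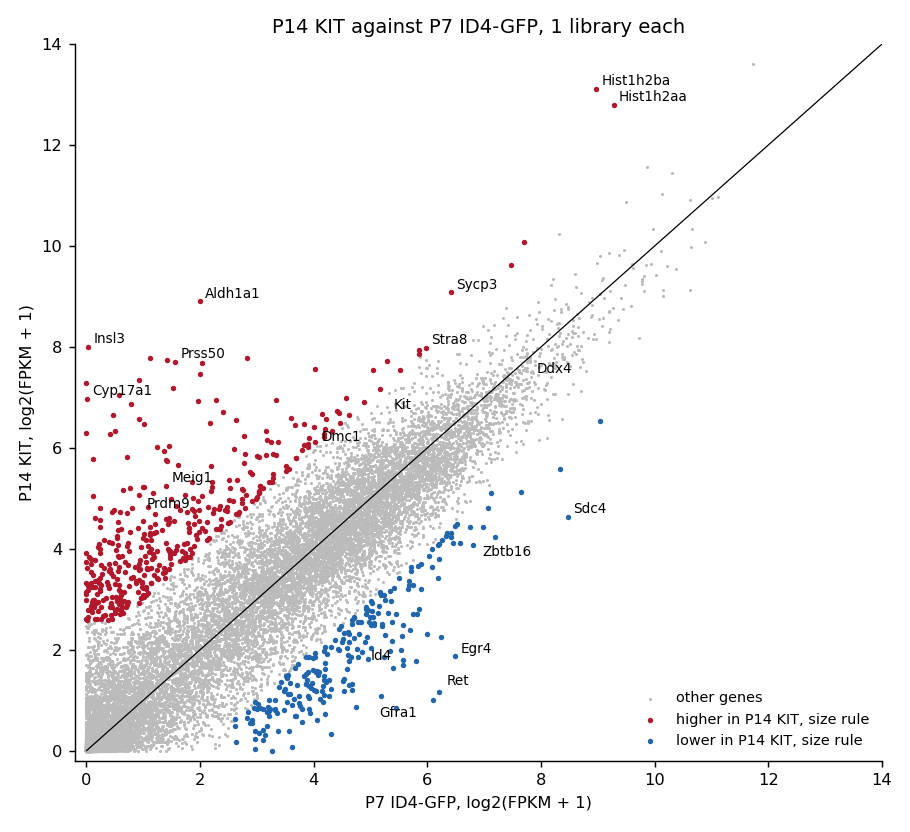
Level of each gene in P14 KIT cells (y axis) against P7 ID4-GFP cells (x axis), both as log2(FPKM + 1), 1 library each; red and blue points are the 398 higher and 230 lower genes of the size rule, and Rmrp is left out. Stem cell genes such as Gfra1 and Ret lie far below the diagonal, and meiotic genes, the testis histones Hist1h2ba and Hist1h2aa and the Leydig cell genes Insl3 and Cyp17a1 lie above it.

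Genes of stem cell self-renewal had the lowest median of all pathway lists, and Gfra1 and Ret in it had the largest differences in the lower direction of all counted genes. Of 21 genes of the list in the deposited data, 16 had the mean level required; 14 of these stood at least 2-fold lower in P14 KIT cells, 11 were counted lower and none was 2-fold higher (median -2.95). The list starts at the receptor for GDNF. Gfra1, its ligand-binding part, stood at 0.992 FPKM in P14 KIT and 67.5 FPKM in P7 ID4-GFP cells (difference -5.10). Ret, the kinase part of the same receptor, stood at 1.23 FPKM in P14 KIT and 72.8 FPKM in P7 ID4-GFP cells (-5.05). Both parts were thus near 1 FPKM in P14 KIT cells.

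The transcription factors that act after the GDNF receptor were low in the same column. Etv4, an ETS factor, stood at 1.11 FPKM in P14 KIT and 35.4 FPKM in P7 ID4-GFP cells, and its relative Etv5 at 3.10 against 31.0 FPKM. Bcl6b, a repressor induced by GDNF, was at 24.5 FPKM in P7 ID4-GFP cells and lower by 3.47 on the log2 scale in P14 KIT cells. Foxc2, a forkhead factor of quiescent stem cells, stood at 0.251 FPKM in P14 KIT against 18.7 FPKM in P7 ID4-GFP cells, and the RNA-binding protein gene Nanos2, which holds back differentiation, at 0.0223 against 6.79 FPKM. Tcl1, an activator of AKT signalling, stood at 0.786 FPKM in P14 KIT and 42.6 FPKM in P7 ID4-GFP cells, and the zinc finger gene Zfp462 at 2.54 against 30.2 FPKM (-3.14). Cd82, a tetraspanin, was the member nearest to no difference (8.16 FPKM in P14 KIT against 11.2 FPKM in P7 ID4-GFP cells, -0.41). Members under 2 FPKM in both columns, among them Eomes, Pax7, Shisa6 and Pdx1, were below the required mean.

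Feedback genes of the ERK pathway, which are switched on by growth factor signals and then damp them, were lower in part. Of 11 measured members 6 stood at least 2-fold lower, 4 were counted lower and none was 2-fold higher (median -1.41). Egr4, an early growth response factor needed for male fertility, stood at 2.65 FPKM in P14 KIT and 88.5 FPKM in P7 ID4-GFP cells (-4.61). The ERK phosphatase gene Dusp6 stood at 3.84 FPKM in P14 KIT against 45.9 FPKM in P7 ID4-GFP cells. Its neighbour in the list, the factor gene Egr2, stood at 1.06 FPKM in P14 KIT against 14.1 FPKM in P7 ID4-GFP cells, and the inhibitor gene Spry4 at 0.765 against 7.62 FPKM. Spred1 (47.2 FPKM in P14 KIT against 44.4 FPKM in P7 ID4-GFP cells) and Dusp14 (16.8 against 15.4 FPKM) stood at nearly equal level, so the list did not move as one. Nab2, the co-repressor of EGR factors, was picked after its values were seen and stood at 4.24 FPKM in P14 KIT and 50.6 FPKM in P7 ID4-GFP cells.

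Immediate early genes, which share upstream signals with the EGR factors and respond to tissue handling, did not share this direction. Their 18 measured members had a median of 0.16, with 7 at least 2-fold higher, 2 at least 2-fold lower and 0 counted. Fos stood at 77.5 FPKM in P14 KIT and 18.8 FPKM in P7 ID4-GFP cells, Jun at 18.8 against 4.35 FPKM and Junb at 39.5 against 12.1 FPKM. Heat shock genes had a median of -0.25 over 13 members with 0 counted.

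Genes of undifferentiated progenitors, the amplifying cells between the stem cell and the KIT-positive stage, were mostly lower. Of 19 members 11 stood at least 2-fold lower and 2 at least 2-fold higher; 5 were counted lower and 1 higher (median -1.49). Zbtb16, which encodes the repressor PLZF, stood at 15.8 FPKM in P14 KIT and 111 FPKM in P7 ID4-GFP cells. Nanos3, an RNA-binding protein gene, stood at 2.46 FPKM in P14 KIT against 46.4 FPKM in P7 ID4-GFP cells, and Pou5f1, the gene of OCT4, at 2.62 against 36.5 FPKM. Lin28a, a blocker of let-7 maturation, kept more of its level, at 21.5 FPKM in P14 KIT against 91.3 FPKM in P7 ID4-GFP cells. Sall4 (29.7 FPKM in P14 KIT against 91.2 FPKM in P7 ID4-GFP cells) and Sox3 (18.3 against 54.6 FPKM) were lower by less than 4-fold. Magea4, an X-linked cancer-testis gene, was the exception at 13.4 FPKM in P14 KIT against 0.468 FPKM in P7 ID4-GFP cells (3.30), and Bmi1 stood at 55.8 against 25.1 FPKM.

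Some counted lower genes code for surface, junction and matrix contact proteins; they were picked after their values were seen, apart from members of the lists, so they stand for themselves and not for genes of this kind. The E-cadherin gene Cdh1 stood at 1.03 FPKM in P14 KIT and 16.4 FPKM in P7 ID4-GFP cells, and occludin (Ocln) at 1.48 against 23.5 FPKM. The junction adhesion molecule gene F11r stood at 8.71 FPKM in P14 KIT against 52.7 FPKM in P7 ID4-GFP cells. The laminin receptor subunit Itga6, a surface antigen used to enrich stem cells, stood at 5.56 FPKM in P14 KIT against 55.3 FPKM in P7 ID4-GFP cells. The syndecan gene Sdc4, which encodes a cell surface proteoglycan, stood at 23.8 FPKM in P14 KIT against 353 FPKM in P7 ID4-GFP cells. The collagen receptor gene Ddr1 stood at 1.51 FPKM in P14 KIT against 24.4 FPKM in P7 ID4-GFP cells and the angiomotin gene Amot at 0.812 against 25.8 FPKM. Of 12 measured surface antigens in the list only Itga6 was counted lower and only Alcam higher (16.2 against 1.64 FPKM), and Thy1, the antigen of the other bead selections, stood at 0.216 FPKM in P14 KIT and 1.17 FPKM in P7 ID4-GFP cells.

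The genes that mark differentiating spermatogonia went both ways, with 4 counted higher and 1 lower among 15 (median 0.56). Prss50, a testis protease gene, stood at 208 FPKM in P14 KIT and 1.95 FPKM in P7 ID4-GFP cells (6.15). The homeobox genes Esx1 and Rhox13, both X-linked, stood at 52.3 FPKM in P14 KIT against 1.66 FPKM in P7 ID4-GFP cells and at 99.0 against 23.5 FPKM, and Ctcfl, the germline relative of the insulator factor CTCF, at 22.4 against 1.92 FPKM. The cyclin gene Ccnd2, a mark of the step from undifferentiated to differentiating cells, was the member counted lower (9.68 FPKM in P14 KIT against 71.5 FPKM in P7 ID4-GFP cells). Sohlh1, Dmrt1 and Uchl1, regulators and markers that also belong to earlier spermatogonia, were lower by under 4-fold (differences -1.35, -0.42 and -0.78). Kit itself differed by 1.39, below the 4-fold bound, and was well measured in P7 ID4-GFP cells too.

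Meiotic genes were the counterpart in the higher direction. The 7 lists for entry, chromosome axis, synaptonemal complex, DNA breaks, strand exchange, crossovers and telomere attachment hold 68 different genes in the table, of which 67 had the required mean. Of these 67, 40 stood at least 2-fold higher in P14 KIT cells and none 2-fold lower; 23 were counted higher and 0 lower (median 1.31). The medians of the single lists ran between 0.85 for strand exchange and 2.56 for telomere attachment.

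**Figure D2:**
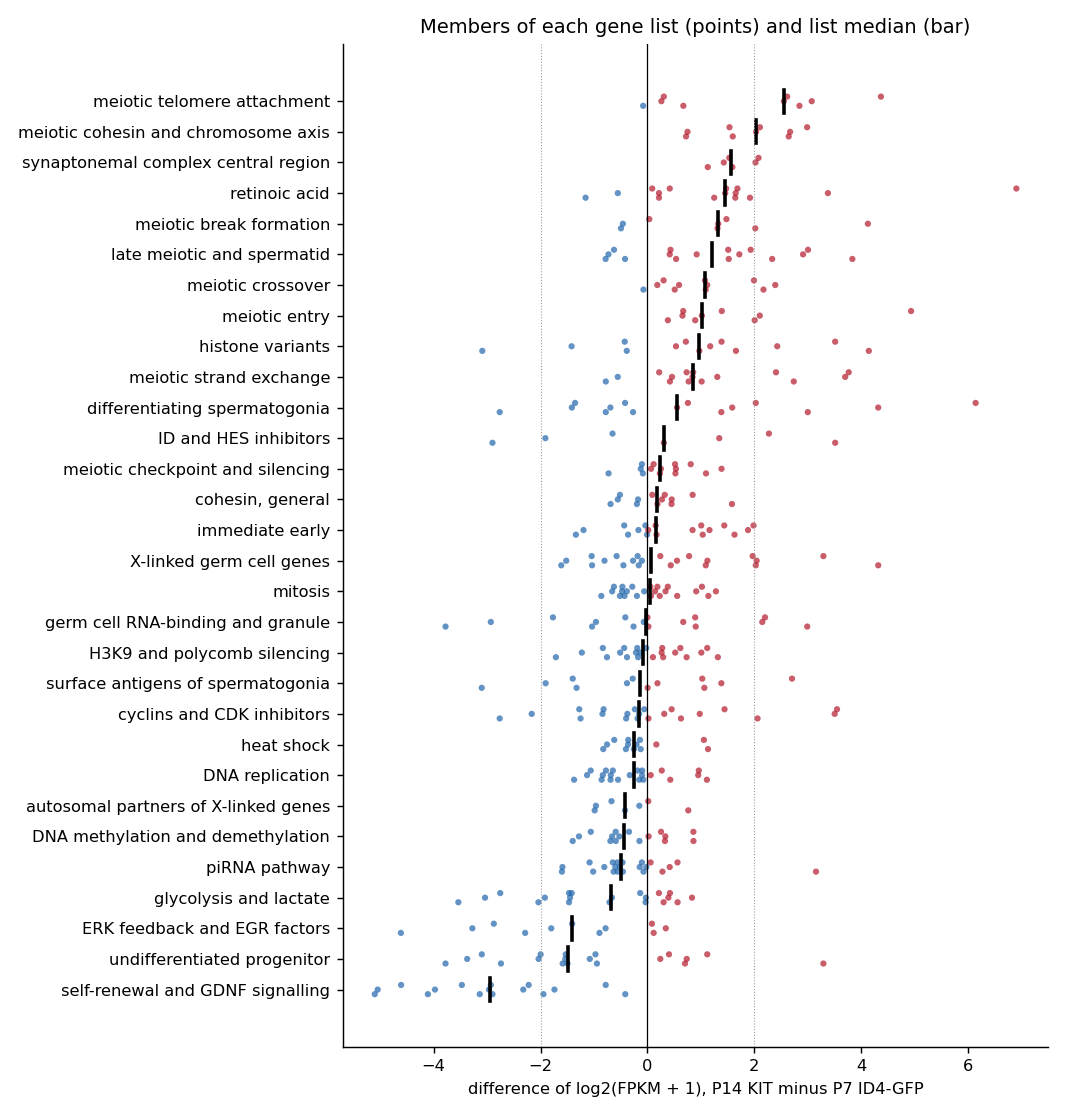
Difference of log2(FPKM + 1), P14 KIT minus P7 ID4-GFP, for every measured member (points) of each pathway list with at least 5 such members, with the list median as a black bar; dotted lines mark 4-fold. Self-renewal lies at the bottom with a median of -2.95 and telomere attachment at the top with 2.56, while general cohesin, replication and mitosis genes centre near 0.

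At the entry into meiosis Stra8, the retinoic acid target that starts the programme, stood at 251 FPKM in P14 KIT and 61.5 FPKM in P7 ID4-GFP cells (2.01). It was thus already well measured in the ID4-GFP cells. Gm1564, whose RefSeq synonym is Meioc, stood at 217 FPKM in P14 KIT and 6.12 FPKM in P7 ID4-GFP cells, the largest difference of the 7 lists (4.94). Its protein partner YTHDC2, with which it holds germ cells in meiosis rather than mitosis, is encoded by Ythdc2, at 54.4 FPKM in P14 KIT against 11.9 FPKM in P7 ID4-GFP cells. The other members were higher by under 4-fold, from Ythdf2 (37.7 FPKM in P14 KIT against 28.7 FPKM in P7 ID4-GFP cells) to Boll (134 against 50.2 FPKM).

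The upstream 250 bases of 4 meiotic genes are printed to show where 3 short motifs lie: CCTCAG, which STRA8 binds in mouse; GGCGGGAA, an E2F6-type site; and CACGTG, the E-box that MGA and MAX bind. Both strands were searched, the start positions count back from the RefSeq start of transcription, and capitals mark a match, so that CTGAGG is CCTCAG on the other strand. Sequences are from RefSeq on GRCm38.p6 and run 5′ to 3′ toward the gene. Stra8 is at chr6:34920698-34920947 (plus strand, CCTCAG at -23) and Hormad1 at chr3:95559427-95559676 (plus strand, the first of its 2 listed starts; GGCGGGAA at -96, CCTCAG at -76, CACGTG at -57 and -20). Tex12 is at chr9:50561269-50561518 (minus strand; GGCGGGAA at -146, CACGTG at -93, CCTCAG at -7) and Sycp3 at chr10:88459337-88459586 (plus strand; CACGTG at -64 and -43).
Stra8: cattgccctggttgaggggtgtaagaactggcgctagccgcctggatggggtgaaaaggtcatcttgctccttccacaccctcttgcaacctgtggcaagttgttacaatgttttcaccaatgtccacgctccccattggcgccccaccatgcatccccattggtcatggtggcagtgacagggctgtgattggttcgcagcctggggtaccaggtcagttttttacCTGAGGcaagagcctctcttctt
Hormad1: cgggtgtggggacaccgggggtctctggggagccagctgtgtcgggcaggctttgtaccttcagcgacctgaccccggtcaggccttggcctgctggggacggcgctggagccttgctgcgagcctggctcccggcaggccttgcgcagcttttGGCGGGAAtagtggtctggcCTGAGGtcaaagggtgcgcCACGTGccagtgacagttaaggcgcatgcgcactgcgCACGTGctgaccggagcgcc
Tex12: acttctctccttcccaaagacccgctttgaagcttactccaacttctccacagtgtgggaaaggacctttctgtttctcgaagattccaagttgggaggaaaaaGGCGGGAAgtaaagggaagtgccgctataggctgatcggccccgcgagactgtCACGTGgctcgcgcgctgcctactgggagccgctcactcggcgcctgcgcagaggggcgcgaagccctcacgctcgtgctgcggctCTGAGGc
Sycp3: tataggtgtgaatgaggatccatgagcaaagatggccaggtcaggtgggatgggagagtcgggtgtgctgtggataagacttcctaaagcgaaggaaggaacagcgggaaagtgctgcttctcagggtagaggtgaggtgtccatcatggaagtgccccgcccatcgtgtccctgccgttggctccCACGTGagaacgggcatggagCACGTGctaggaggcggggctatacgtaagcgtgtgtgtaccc

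The 4 promoters printed above were picked as examples and do not stand for the meiotic lists. Of the 68 meiotic genes 57 had an entry in the RefSeq promoter table. CACGTG lay in 12 of these 57 promoters (21.1%), against 9.08% of the promoters of all genes with the required mean and 6.05% of all 27025 promoters in the table. GGCGGGAA lay in 4 (7.02%), against 3.88% and 1.88%. CCTCAG lay in 15 (26.3%), against 21.9% and 22.2%. Among all counted genes CCTCAG lay in 28.8% of the 313 promoters of higher genes and 15.3% of the 170 promoters of lower genes, while CACGTG lay in 4.79% and 10.0%. CCGGAAGT, a site of ETS factors, lay in 5 of the 313 promoters of higher and none of the 170 of lower genes, against 6.43% of all with the required mean, and GCGTGGGCG, the EGR site, in 1.28% of the higher and 1.76% of the lower, against 1.16%. A full direct repeat of the retinoic acid receptor half-site with a spacer of 5 bases lay in none of the counted promoters and 2 of all 27025. A match is a description of letters, not a bound site, and these shares were not tested.

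Cohesin and axis genes, which build the core along each meiotic chromosome, were higher in 7 of 9 by at least 2-fold and counted in 5 (median 2.04). Gm14160, listed by RefSeq as Rad21l and encoding a meiosis-specific cohesin subunit, stood at 95.7 FPKM in P14 KIT and 11.2 FPKM in P7 ID4-GFP cells. Sycp3 and Sycp2, the lateral element proteins, stood at 540 FPKM in P14 KIT against 83.8 FPKM in P7 ID4-GFP cells and at 89.2 against 20.99 FPKM. Hormad1, the axis protein that recruits the break machinery and whose promoter above holds all 3 motifs, stood at 88.0 FPKM in P14 KIT against 13.2 FPKM in P7 ID4-GFP cells, and its break-promoting partner Ccdc36, now Iho1, at 63.5 against 14.0 FPKM. Rec8 (28.1 FPKM in P14 KIT against 16.3 FPKM in P7 ID4-GFP cells) and Stag3 (227 against 137 FPKM), also meiotic cohesin genes, were higher by less than 2-fold. The 13 cohesin genes that all dividing cells use had a median of 0.19 with 0 counted, and among them Smc1a stood at 19.6 FPKM in P14 KIT against 32.2 FPKM in P7 ID4-GFP cells. Its meiotic counterpart Smc1b stood at 211 FPKM in P14 KIT against 72.1 FPKM in P7 ID4-GFP cells.

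All 6 genes of the central region of the synaptonemal complex, which zips the paired chromosomes, were at least 2-fold higher, and 2 were counted (median 1.56). Tex12 stood at 244 FPKM in P14 KIT and 56.9 FPKM in P7 ID4-GFP cells, and 4930447C04Rik, known in mouse as Six6os1, at 73.1 against 17.2 FPKM. The transverse filament gene Sycp1 stood at 190 FPKM in P14 KIT against 62.2 FPKM in P7 ID4-GFP cells, and Syce1, Syce2 and Syce3 (1700007E06Rik in the table) differed by 1.13, 1.43 and 1.53. All 6 were thus well above 10 FPKM in P7 ID4-GFP cells too.

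Recombination genes showed a wide spread within each step. For DNA breaks, Prdm9, the methyltransferase that places hotspots, stood at 32.3 FPKM in P14 KIT and 0.901 FPKM in P7 ID4-GFP cells (4.13). Mei1, needed for the breaks, stood at 31.7 FPKM in P14 KIT against 7.05 FPKM in P7 ID4-GFP cells, and Spo11, the break enzyme itself, at 6.75 against 2.12 FPKM. Rec114 (2410076I21Rik), a break factor, was level at 58.8 FPKM in P14 KIT against 57.3 FPKM in P7 ID4-GFP cells. For strand exchange, 4 of 15 genes were counted. The meiotic recombinase gene Dmc1 stood at 84.4 FPKM in P14 KIT and 15.1 FPKM in P7 ID4-GFP cells. The single-strand binding partners Meiob (4930528F23Rik) and Spata22 stood at 17.9 FPKM in P14 KIT against 0.453 FPKM in P7 ID4-GFP cells and at 24.0 against 2.74 FPKM, and Rad51ap2 at 19.9 against 0.530 FPKM. Mnd1, a cofactor of DMC1, was lower by under 2-fold (5.46 FPKM in P14 KIT against 10.1 FPKM in P7 ID4-GFP cells). For crossovers, the helicase gene Hfm1 (34.7 FPKM in P14 KIT against 5.78 FPKM in P7 ID4-GFP cells) and the crossover maturation gene Cntd1 (14.0 against 2.33 FPKM) were counted. Msh5 lay just under the bound (17.0 FPKM in P14 KIT against 3.52 FPKM in P7 ID4-GFP cells), and the mismatch repair gene Mlh3 differed by -0.07.

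Telomere attachment genes had the highest median of the pathway lists, with 5 of 9 counted (2.56). Spdya, which activates CDK2 at telomeres, stood at 53.4 FPKM in P14 KIT and 1.63 FPKM in P7 ID4-GFP cells (4.37). The 3 parts of the complex that ties the telomere to the inner nuclear membrane stood close together: Terb1 (Ccdc79) at 22.0 FPKM in P14 KIT against 1.73 FPKM in P7 ID4-GFP cells, Terb2 (4933406J08Rik) at 14.9 against 1.70 FPKM and Majin (1700123I01Rik) at 12.8 against 0.918 FPKM. Kash5 (Ccdc155), which links the attached telomere to dynein outside the nucleus, stood at 20.4 FPKM in P14 KIT against 2.49 FPKM in P7 ID4-GFP cells. Members with roles outside meiosis were nearly level, Cdk2 at 67.3 FPKM in P14 KIT against 54.2 FPKM in P7 ID4-GFP cells and Sun2 at 16.6 against 17.6 FPKM.

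Lists close to meiosis but not part of the 7 had few or no counted genes. Genes of the meiotic checkpoint and of sex chromosome silencing had a median of 0.24 with 0 of 14 counted. H2afx, the histone phosphorylated at breaks, stood at 1877 FPKM in P14 KIT and 716 FPKM in P7 ID4-GFP cells and its kinase gene Atr at 134 against 62.2 FPKM, while Brca1 (50.4 against 54.9 FPKM) and Trip13 (57.2 against 60.7 FPKM) were nearly level. In the piRNA pathway, which silences transposons, 1 of 22 members was counted and the median was -0.49. That member was Mybl1, the transcription factor that turns on pachytene piRNA and meiotic genes, at 23.4 FPKM in P14 KIT and 1.73 FPKM in P7 ID4-GFP cells. The effector genes were not counted: Piwil4, which acts in fetal germ cells, stood at 3.16 FPKM in P14 KIT against 11.5 FPKM in P7 ID4-GFP cells and Piwil1, the pachytene effector, at 8.32 against 5.97 FPKM. Tdrd5, a scaffold gene of the pathway, stood at 16.6 FPKM in P14 KIT against 52.2 FPKM in P7 ID4-GFP cells.

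Many late meiotic and spermatid genes were at low level, with 10 of 27 members under 1 FPKM in P14 KIT and 16 in P7 ID4-GFP cells. Of the 27, 16 had the required mean, 8 stood at least 2-fold higher and 3 were counted (median 1.22). With no filter the median was 0.54. Meig1, needed for spermatid shaping, stood at 36.9 FPKM in P14 KIT and 1.65 FPKM in P7 ID4-GFP cells, Ldhc at 31.9 against 3.09 FPKM and Crisp2 at 7.58 against 0.138 FPKM. The protamine genes Prm1 and Prm2 stood at 1.40 and 0.741 FPKM in P14 KIT cells and were listed at 0 in P7 ID4-GFP cells. In P14 THY1 cells, a bead-selected column of the same age with 1 library, Meig1 stood at 978, Ldhc at 1409 and Crisp2 at 334 FPKM; how far cells of that kind enter the P14 KIT values was not tested.

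Testis-specific histones were among the most abundant transcripts of P14 KIT cells. Hist1h2ba, the gene of the testis H2B (TH2B), stood at 8841 FPKM in P14 KIT and 498 FPKM in P7 ID4-GFP cells (4.15), and Hist1h2aa, the testis H2A (TH2A), at 7092 against 619 FPKM (3.52). In the ID4-GFP column and the KIT columns by age Hist1h2ba stood at 498 FPKM in P7 ID4-GFP, 1048 in P7 KIT, 3604 in P12 KIT and 8841 in P14 KIT cells. Hist1h2aa stood at 619, 1152, 2057 and 7092 FPKM in the same columns, so both were higher in P7 KIT than in ID4-GFP cells of the same age and again at each later age. The linker histone gene Hist1h1t stood at 210 FPKM in P14 KIT and 38.1 FPKM in P7 ID4-GFP cells. In the other direction H2afy2, the gene of macroH2A2, stood at 4.59 FPKM in P14 KIT against 46.6 FPKM in P7 ID4-GFP cells and its relative H2afy at 25.1 against 68.9 FPKM. Histone genes have close copies that can share reads, so single values are uncertain.

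The pair of testis histone genes lies head to head, with starts 280 bases apart, so their upstream windows overlap. The 250 bases upstream of Hist1h2ba (H2bc1 in RefSeq, chr13:23934157-23934406, minus strand, GRCm38.p6) are printed because the pair shares them: 220 of the bases are the upstream bases of Hist1h2aa, read on the other strand. Capitals mark the octamer ATTTGCAT at -164, a motif of histone promoters searched after the values were seen. It lies in 1.61% of all promoters of that length.
Hist1h2ba: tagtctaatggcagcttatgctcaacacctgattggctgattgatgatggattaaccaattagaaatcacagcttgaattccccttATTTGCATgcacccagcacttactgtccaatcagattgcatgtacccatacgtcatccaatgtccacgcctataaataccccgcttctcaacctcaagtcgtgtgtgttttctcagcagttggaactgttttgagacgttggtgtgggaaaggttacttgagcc

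DNA replication and mitosis genes had medians near that of all genes. Replication had a median of -0.26 over 22 members and mitosis 0.06 over 23, with 0 counted in both. Mki67 stood at 82.5 FPKM in P14 KIT and 63.1 FPKM in P7 ID4-GFP cells, Mcm7 at 81.6 against 180 FPKM and Bub1 at 146 against 59.2 FPKM. Single regulators of the cycle differed much more. The cyclin E2 gene Ccne2 stood at 188 FPKM in P14 KIT and 15.1 FPKM in P7 ID4-GFP cells (3.55), while Ccne1 stood at 23.1 against 16.6 FPKM. The CDK4 and CDK6 inhibitor gene Cdkn2c stood at 30.8 FPKM in P14 KIT against 1.80 FPKM in P7 ID4-GFP cells and the meiotic cyclin gene Ccnb3 at 20.1 against 4.04 FPKM. Cdkn1c, the gene of the inhibitor p57, went the other way (5.90 FPKM in P14 KIT against 29.9 FPKM in P7 ID4-GFP cells), as Ccnd2 did. G1 genes below the bound were Cdk4 (101 FPKM in P14 KIT against 246 FPKM in P7 ID4-GFP cells) and E2f1 (12.6 against 31.3 FPKM).

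The lists of DNA methylation and of silencing chromatin had 0 counted members. The DNA methylation list had a median of -0.43 over 16 members, 3 at least 2-fold lower: Uhrf1, the cofactor of maintenance methylation, at 51.9 FPKM in P14 KIT and 138 FPKM in P7 ID4-GFP cells, Mbd3 at 20.6 against 51.5 FPKM and the de novo enzyme gene Dnmt3a at 14.1 against 30.5 FPKM. In the list of H3K9 methylation and polycomb genes the median was -0.07 over 22 members. Ehmt2, the gene of the H3K9 methyltransferase G9a, stood at 88.8 FPKM in P14 KIT against 209 FPKM in P7 ID4-GFP cells, and Pcgf6, part of a complex that represses germline and meiotic genes in embryonic stem cells, at 12.4 against 43.0 FPKM.

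Glycolysis was the metabolic list with counted genes, 4 lower and 0 higher among 20 measured members (median -0.69), with 9 at least 2-fold lower. The hexokinase gene Hk2 stood at 7.72 FPKM in P14 KIT and 34.8 FPKM in P7 ID4-GFP cells, and the pyruvate kinase gene Pkm2 at 46.8 against 322 FPKM. The enolase gene Eno1 stood at 5.49 FPKM in P14 KIT against 52.4 FPKM in P7 ID4-GFP cells. The pyruvate dehydrogenase kinase gene Pdk1 stood at 2.98 FPKM in P14 KIT against 45.2 FPKM in P7 ID4-GFP cells (-3.54), and the glucose transporter gene Slc2a1 at 6.68 against 28.0 FPKM. Ldha (15.9 FPKM in P14 KIT against 8.49 FPKM in P7 ID4-GFP cells) and Slc2a3 (10.4 against 6.69 FPKM) were higher by under 2-fold. Several glycolysis genes have near-identical copies: Gapdh was listed at 0.321 and 0.193 FPKM and Pgk1 at 0.758 and 0.675 FPKM in P14 KIT and P7 ID4-GFP cells, which shows that levels of such genes in the table are uncertain.

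Markers of Leydig cells, the steroid-producing cells between the tubules, had the highest median of all lists. Leydig cells and mast cells are known to carry KIT as well. Of 12 markers 11 had the required mean, all 11 stood at least 2-fold higher in P14 KIT cells and 10 were counted (median 3.23), with a summed level of 744 FPKM in P14 KIT and 25.7 FPKM in P7 ID4-GFP cells. Of the 12 markers 9 were under 1 FPKM in P7 ID4-GFP cells, so most met the required mean only through their P14 KIT value. The P7 ID4-GFP column was also chosen as the one with fewest transcripts of other cells. The direction of this list is thus partly set by these choices, which also touch the marker lists below. The hormone gene Insl3 stood at 256 FPKM in P14 KIT against 0.0196 FPKM in P7 ID4-GFP cells, and the steroid enzyme genes Cyp17a1 at 124 against 0.0101 FPKM and Cyp11a1 at 76.3 against 0.338 FPKM. Hsd3b1 stood at 98.9 FPKM in P14 KIT and 0.382 FPKM in P7 ID4-GFP cells; Hsd3b6, a close copy of it and of adult Leydig cells, stood at 76.9 FPKM and was listed at 0, as was Hao2 (6.91 FPKM in P14 KIT). The 2 Hsd3b values may share reads. Hsd17b3, the last enzyme of testosterone synthesis, stood at 0.712 FPKM in P14 KIT against 0.720 FPKM in P7 ID4-GFP cells.

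Other cell types differed in direction. Fibroblast and stroma markers were counted higher in 6 of 10 (median 2.81 over 8 measured; summed level 381 against 56.2 FPKM), with Col3a1 at 145 FPKM in P14 KIT and 1.87 FPKM in P7 ID4-GFP cells and Dcn at 94.3 against 0.907 FPKM, while Col1a1 was level (17.1 against 16.8 FPKM). Of 17 Sertoli markers 2 were counted higher, Clu at 55.7 FPKM in P14 KIT against 7.24 FPKM in P7 ID4-GFP cells and Kitl, the KIT ligand, at 5.50 against 0.506 FPKM. Of the 10 Sertoli markers with the required mean 6 stood at least 2-fold higher and 1 lower (median 1.61), and the list summed to 195 FPKM in P14 KIT against 106 FPKM in P7 ID4-GFP cells. The defining genes Sox9 (0.174 against 0.328 FPKM) and Amh (0.602 against 3.30 FPKM) were near 0 in P14 KIT. Peritubular myoid markers summed to 45.7 FPKM in P14 KIT against 10.8 FPKM in P7 ID4-GFP cells, with Myl9 counted. Endothelial markers summed to 30.5 FPKM in P14 KIT against 32.3 FPKM in P7 ID4-GFP cells with 0 counted. Macrophage markers were low in both columns, 4.86 FPKM in P14 KIT against 16.5 FPKM in P7 ID4-GFP cells in sum, with 0 counted. All 7 mast cell markers were listed at 0 in P7 ID4-GFP cells and summed to 4.999 FPKM in P14 KIT cells. The part of these cells in other differences was not tested.

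**Figure D3:**
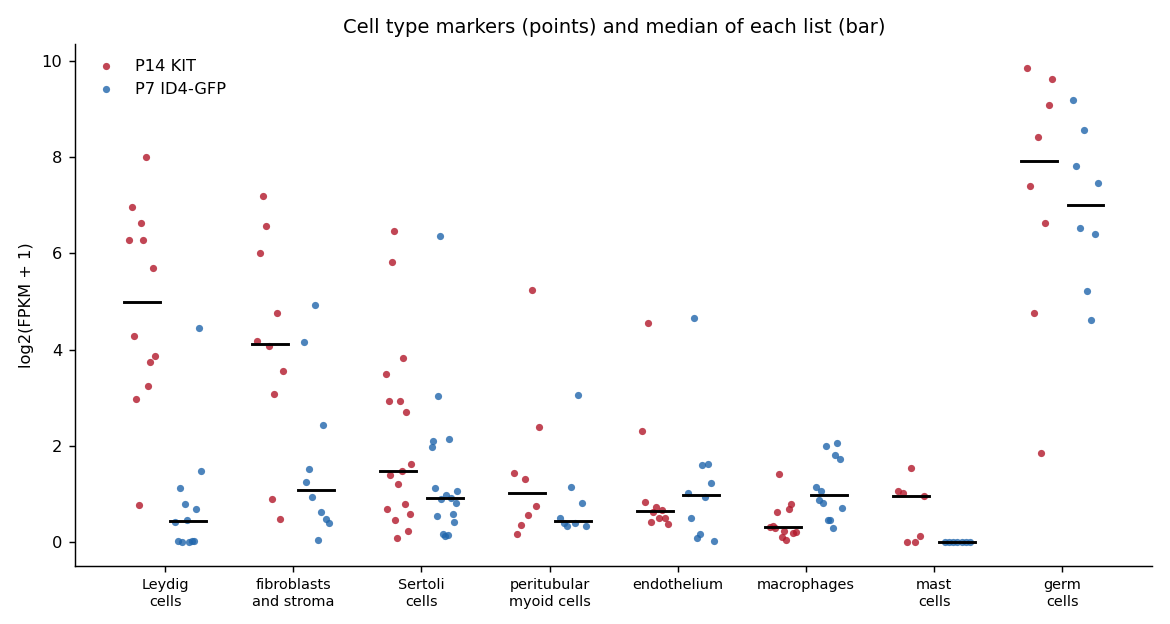
Level of each marker gene (points, log2(FPKM + 1)) of other testis cells and of germ cells in P14 KIT (red, left) and P7 ID4-GFP (blue, right), with the median of each list as a bar. Leydig and stroma markers lie highest above their P7 ID4-GFP levels, with sums of 744 against 25.7 and 381 against 56.2 FPKM, and macrophage markers lie below them.

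Retinoic acid genes were higher more often than lower. The list holds 19 genes, of which 15 had the required mean. Of these 15 members 9 stood at least 2-fold higher, 1 lower, and 2 were counted (median 1.46). With no filter the median was 0.42, and over the same 15 members it was 0.65 in P12 KIT against P7 OCT4-GFP. Aldh1a1, an enzyme that makes retinoic acid, stood at 479 FPKM in P14 KIT and 2.99 FPKM in P7 ID4-GFP cells (6.91), and Cyp26b1, which degrades it, at 16.3 against 0.660 FPKM. The receptor genes Rara (10.4 FPKM in P14 KIT against 15.7 FPKM in P7 ID4-GFP cells) and Rxra (19.4 against 44.5 FPKM) were lower by under 4-fold. Aldh1a1 and Cyp26b1 stood at 270 and 29.5 FPKM in P7 KIT cells, in which Leydig markers summed to 1245 FPKM, and the part of other cells in these values was not tested. Among the inhibitors related to Id4, Id2 stood at 20.4 FPKM in P14 KIT and 0.869 FPKM in P7 ID4-GFP cells and Id3 at 19.5 against 3.23 FPKM, opposite to Id4. Id2 and Id3 were also high in P7 KIT cells (40.5 and 61.3 FPKM). They were highest in P0 THY1 cells (87.5 and 127 FPKM), the column with the highest sum of other-cell markers. In P7 OCT4-GFP cells they were low (2.95 and 6.79 FPKM). The part of other cells in the Id2 and Id3 values was not tested.

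Intermediate columns of the same study give the levels of the counted genes beside the compared columns. P7 KIT and P12 KIT hold 2 libraries each in 1 value, and P7 KIT shares the age of the ID4-GFP cells and the beads of the P14 KIT cells. The higher genes were chosen for a low P7 ID4-GFP and a high P14 KIT value, so counts against either column are partly set by the choice. Shares over all genes with the required mean are not given for these counts. Of the 398 higher genes 207 stood at least 4-fold higher already in P7 KIT than in P7 ID4-GFP cells. In 85 the level was at least 4-fold higher in P14 KIT than in P7 KIT. Of the 398 genes 4 did both and 110 neither. Their median level was 1.19 FPKM in P7 ID4-GFP, 12.1 in P7 KIT, 12.7 in P12 KIT and 17.8 in P14 KIT cells. Of the same 398 genes 158 stood higher in P0 THY1 cells, the column with the highest sum of other-cell markers (10630 FPKM), than in P14 KIT. In 125 of the 398 the P7 KIT value was higher than the P14 KIT value. Other-cell markers summed to 2840 FPKM in P7 KIT and 1412 FPKM in P14 KIT cells, and their part in these counts was not tested.

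The 85 genes that set P14 KIT apart from P7 KIT held 19 members of the meiotic lists, which make up 23 of all 398 higher genes and 67 of the 12027 with the required mean. In 67 of the 85 the level was at least 2-fold higher in P12 KIT than in P7 KIT. The 85 were chosen for a low P7 KIT and a high P14 KIT value, so counts against these columns are partly set by the choice. In 24 of the 85 the P14 THY1 column stood at least 4-fold higher than P14 KIT, while in 32 P14 KIT stood at least 2-fold higher than P14 THY1. Shares over all genes with the required mean are not given for these counts. Prdm9 stood at 0.901 FPKM in P7 ID4-GFP, 3.11 in P7 KIT, 31.5 in P12 KIT and 32.3 in P14 KIT cells. Meioc (Gm1564) stood at 6.12, 31.4, 194 and 217 FPKM in these columns and Spdya at 1.63, 2.59, 29.7 and 53.4 FPKM. For these genes the step from P7 KIT to P12 KIT was thus larger than that from P12 KIT to P14 KIT. Ldhc stood at 3.09, 0.805, 1.88 and 31.9 FPKM, so that its step came between P12 KIT and P14 KIT. Over whole lists the telomere genes had a median difference of 0.04 between P7 KIT and P7 ID4-GFP, 1.79 between P12 KIT and P7 KIT and 0.17 between P14 KIT and P12 KIT. Axis genes had -0.22, 1.85 and 0.17 for the same steps.

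The lower genes were chosen for a high P7 ID4-GFP and a low P14 KIT value, so that a column between these values is partly set by the choice. Their median level was 22.1 FPKM in P7 ID4-GFP, 8.70 in P7 KIT, 8.39 in P12 KIT and 2.55 in P14 KIT cells. Of the 230, 153 stood at least 2-fold lower in P7 KIT than in P7 ID4-GFP and 149 at least 2-fold lower in P14 KIT than in P12 KIT; in 215 the P7 KIT value lay between P7 ID4-GFP and P14 KIT. Of the same genes 21 were already 4-fold lower in P7 KIT, 37 were 4-fold lower in P14 KIT than in P7 KIT, 3 of these were both and 175 neither. Gfra1 stood at 67.5 FPKM in P7 ID4-GFP, 8.49 in P7 KIT, 12.3 in P12 KIT and 0.992 in P14 KIT cells. Sdc4 stood at 353, 198, 194 and 23.8 FPKM, with most of its difference after P12. The ERK feedback list differed by a median of 0.19 between P7 KIT and P7 ID4-GFP, -0.52 between P12 KIT and P7 KIT and -1.04 between P14 KIT and P12 KIT, so at P7 the list as a whole was not lower in KIT cells.

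**Figure D4:**
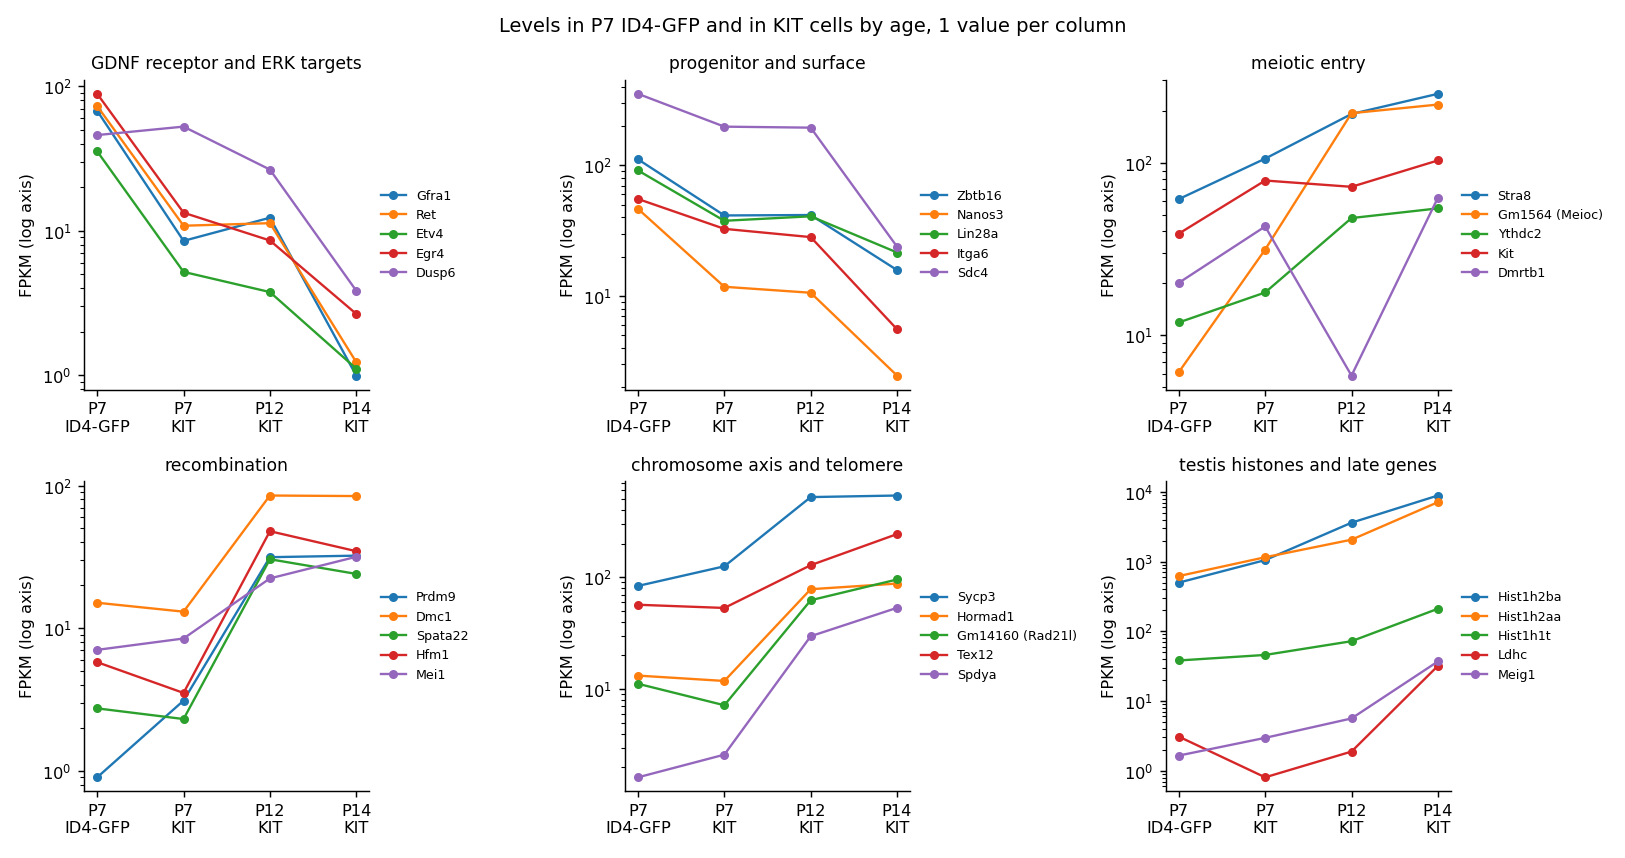
Level (FPKM, log axis) of 5 genes per panel in P7 ID4-GFP, P7 KIT, P12 KIT and P14 KIT cells, 1 value per column, the P7 KIT and P12 KIT values from 2 libraries each. Gfra1 and Ret are lower at P7 KIT and again at P14 KIT, most recombination and axis genes are higher from P12 KIT on, and Ldhc is higher at P14 KIT.

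P12 KIT against P7 OCT4-GFP is a comparison of the same kind, KIT beads against a GFP sort, that shares no library with P14 KIT against P7 ID4-GFP. By the same rule 350 of 12761 genes (2.74%) were counted higher and 89 (0.697%) lower in P12 KIT cells. Of the higher genes 143 were in both comparisons, 35.9% of the 398 and 40.9% of the 350. Of the lower genes 27 were in both, 11.7% of the 230 and 30.3% of the 89. In the P12 KIT comparison 388 of the 398 higher genes and 212 of the 230 lower genes had the same sign, and 1 gene of each set was counted in the opposite direction. Over all genes with the required mean the same sign was found in 4304 of the 5756 higher in P14 KIT (74.8%) and in 4590 of the 6271 lower (73.2%).

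By list, the same 67 meiotic and 16 self-renewal genes can be set side by side. The self-renewal list had a median of -2.95 in P14 KIT against P7 ID4-GFP and -1.76 in P12 KIT against P7 OCT4-GFP, and the axis list 2.04 and 1.79. For strand exchange the values were 0.85 and 0.55, for the synaptonemal complex 1.56 and 0.95, for telomere attachment 2.56 and 1.76, and for Leydig markers 3.23 and 2.09. The ERK feedback list had -1.41 in P14 KIT against P7 ID4-GFP and -0.30 in P12 KIT against P7 OCT4-GFP, and the late meiotic list 1.22 and -0.06. All lists named here thus had a median closer to 0 in the comparison of the other columns, and the late meiotic median changed sign.

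**Figure D5:**
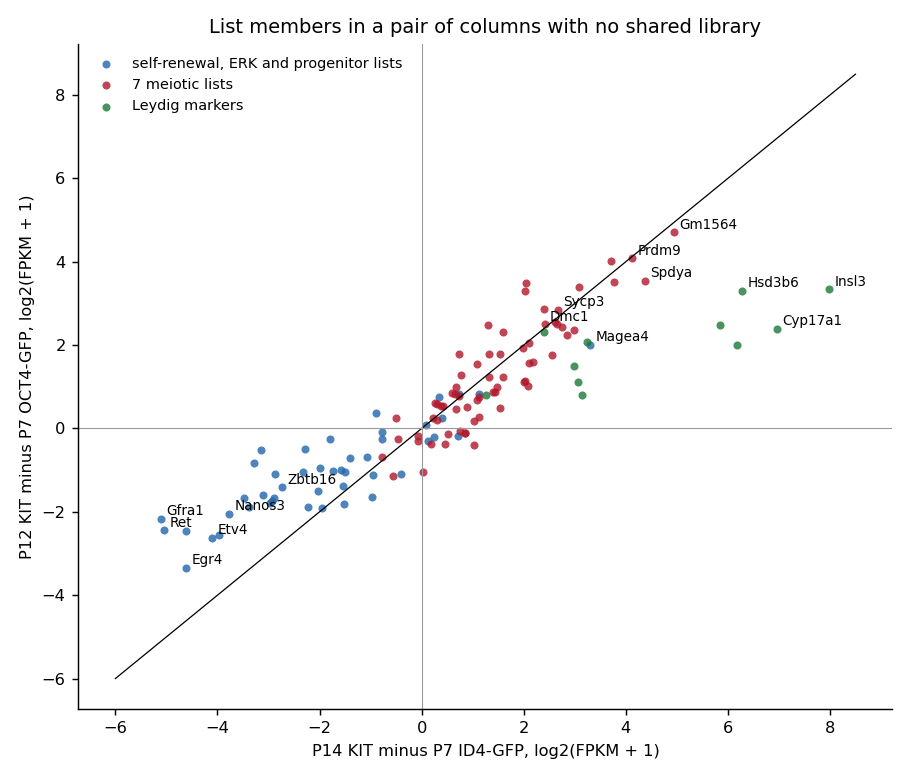
Difference of log2(FPKM + 1) for measured list members in P12 KIT minus P7 OCT4-GFP (y axis) against P14 KIT minus P7 ID4-GFP (x axis), 1 value per column; the line marks equal differences. The single meiotic genes Gm1564 and Prdm9 lie near the line, while the self-renewal gene Gfra1 and the Leydig marker Insl3 lie closer to 0 on the y axis. List medians were closer to 0 on the y axis both for self-renewal (-1.76 against -2.95) and for telomere attachment (1.76 against 2.56).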

How the data were processed

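RNA of sorted mouse testis cells was sequenced. Libraries were directional and made from RNA without ribosomal RNA, per the labels' protocols; the submitters' processing notes name mm9 as the build and CASAVA, TopHat2 2.0.9 and Cufflinks 2.1.1 as tools, and the annotation is not given in the sources used here. The authors deposited FPKM, 1 value per gene and column, and how the 2 libraries of some columns were combined is not stated. Depth is unknown, since FPKM hold no counts, so no counting interval could be given. With 1 library per side there was no test.

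Deposited FPKM were turned into log2(FPKM + 1) and subtracted with Python 3.11.15, numpy 2.4.6 and pandas 2.3.3 (plots: matplotlib 3.10.9). The size rule is 4-fold with 5 FPKM in the higher column, and lists used genes with a mean of 1 FPKM over both columns. The calculation was tested on simulated data. Members and lists (30 pathways, 10 cell types, 595 symbols, 13 of them not in the table and 17 matched through a synonym) were chosen with earlier results of these data known. The text names the sort markers, the 15 largest differences each way and up to 6 counted members per list; other genes, mostly list members given for contrast, were chosen after their values were seen. Promoters and names are RefSeq on GRCm38.p6, matched for 16280 of 20889 symbols, the last 250 bases before the start; no coordinates were taken across builds. Alternatives were other pseudocounts, floors, scalings and columns. Bisulfite and chromatin samples were not used here.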

Additional observations from a re-analysis of the deposited data

How the results depend on the processing

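No paired analysis was possible because each side is 1 library, and leaving out a replicate was likewise not possible. The 398 higher genes became 143 at 8-fold, 184 with a floor of 20 FPKM, 122 with a pseudocount of 5 and 240 without genes that stood higher in P0 THY1 than in both columns, an alternative chosen after seeing the data. The 230 lower genes became 44 at 8-fold, 123 with a floor of 20 FPKM and 57 with a pseudocount of 5, and 66 with P12 KIT, 26 with P7 KIT and 89 with P12 KIT and P7 OCT4-GFP in place of the columns. Other counts stayed within 1.5 times, but not all of the genes: the 565 higher with P12 KIT in place of P14 KIT held 236 of the 398, and the 545 with P7 KIT held 199. Of 293 list medians under the alternatives, over 37 lists, 248 stayed within 1.5-fold and 43 moved. The other 2 changed sign from a main median of at least 1 in size. Sertoli markers went to -0.42 with P7 OCT4-GFP in place of P7 ID4-GFP. Late meiotic genes went to -0.059 with P12 KIT and P7 OCT4-GFP. Medians nearer 0 also changed sign and are counted among the 248 and 43. Endothelial markers went from -0.49 to 1.18 and differentiating spermatogonia from 0.56 to -0.35 with P12 KIT in place of P14 KIT. With P12 KIT in place of P14 KIT the medians were -0.41 for ERK feedback, 0.42 for crossovers, 1.76 for telomere attachment, -1.83 for self-renewal and -0.69 for progenitors. With P12 KIT and P7 OCT4-GFP they were -0.30 for ERK feedback, 2.09 for Leydig markers, 1.76 for telomere attachment, -1.76 for self-renewal and 0.95 for the synaptonemal complex. With a pseudocount of 0.1 they were 6.24 for Leydig markers and -3.83 for self-renewal, with a mean of at least 5 FPKM 5.85 for Leydig markers, and with no filter -2.32 for self-renewal. The cause of these shifts was not tested. Unknown depth limits values near 0, more so in P14 KIT.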

Other observations

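X-linked genes stood higher than autosomal genes in P14 KIT cells. Over 459 X-linked genes with the required mean the median difference was 0.26, 23.3% were at least 2-fold higher and 6.54% counted higher, against -0.05, 12.6% and 3.21% over 11476 autosomal genes, with chromosomes taken from RefSeq. Medians of single autosomes ran between -0.16 and 0.10, and the highest autosomal share at 2-fold was 19.3%, on chromosome 3. In P12 KIT against P7 OCT4-GFP the X-linked median was 0.25. In the list of X-linked germ cell genes 4 of 22 measured members were counted higher, Esx1, Magea4, Rhox13 and Nxt2 (16.9 FPKM in P14 KIT and 3.34 FPKM in P7 ID4-GFP cells), and the median was 0.07.

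The families and genes that follow were picked after their values were seen. The clustered histone genes, with the testis histones Hist1h2ba, Hist1h2aa and Hist1h1t among them, had a median of 0.37 over 55 members in P14 KIT against P7 ID4-GFP. In P12 KIT against P7 OCT4-GFP their median was -1.35. Hist1h1a stood at 12401 FPKM in P14 KIT and 3390 FPKM in P7 ID4-GFP cells, whereas Hist1h3e stood at 33.9 FPKM in P14 KIT and 198 FPKM in P7 ID4-GFP cells. Ribosomal protein genes had medians of -0.28 (large subunit) and -0.30 (small subunit). The germ cell surface protein genes Ly6k and Tex101 stood at 162 and 790 FPKM in P14 KIT cells, against 0.903 and 177 FPKM in P7 ID4-GFP cells. The RNA-binding ubiquitin ligase gene Trim71, a let-7 target, stood at 17.8 FPKM in P14 KIT and 145 FPKM in P7 ID4-GFP cells, beside its pathway neighbour Lin28a. The serine and glycine pathway genes Phgdh and Gldc stood at 5.61 and 1.77 FPKM in P14 KIT cells, against 38.7 and 13.3 FPKM in P7 ID4-GFP cells. The MHC class I gene H2-K1 stood at 93.2 FPKM in P14 KIT and 5.16 FPKM in P7 ID4-GFP cells.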
